A study of Caenorhabditis elegans with 27 samples.

Results

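The abu and pqn genes of the pharyngeal cuticle were examined in Caenorhabditis elegans larvae: 9 genes, chosen by sequence name, of the 20390 listed in each library. They were abu-1 (AC3.3), pqn-2 (AC3.4), abu-15 (C03A7.4, also called pqn-5), abu-6 (C03A7.7), abu-7 (C03A7.8), abu-8 (C03A7.14), abu-10 (F35A5.3), abu-11 (T01D1.6) and pqn-75 (W03D2.1). The pqn genes are named for prion-like proteins rich in glutamine and asparagine, and the abu genes for their induction when the unfolded protein response of the endoplasmic reticulum is blocked. Many abu and pqn genes are close paralogs whose transcripts are made in the pharynx. The pharynx, the feeding organ, is lined by a cuticle that contains chitin and is shed and rebuilt at each larval molt. Transcripts of many cuticle genes, of the pharynx and of the body wall alike, rise and fall once in each larval stage.

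Poly(A) RNA of whole worms was sequenced in 27 stranded libraries to ask what is transcribed when topoisomerases or condensin DC are depleted. Auxin (indole-3-acetic acid, 1 mM) drives the degradation of a protein that carries a degron tag in worms that express the plant protein TIR1. CA1200 was the strain without a tagged target; it is known as a strain with TIR1 under the eft-3 promoter in somatic cells. AM05 carried top-1::degron::GFP (the TOP-1 strain), SS01A carried top-2::degron::GFP (the TOP-2 strain), and AM01 carried dpy-27::degron::GFP (the DPY-27 strain; DPY-27 is a subunit of condensin DC, which acts in X chromosome dosage compensation). Starved L1 larvae were grown for 24 h at 22 °C, washed, split, and kept without auxin (0 min) or with it for 30, 60 or 120 min; the DPY-27 strain was sampled only without auxin and at 120 min. Larvae were at L2/L3, except for a culture of the DPY-27 strain labelled as mixed stage larvae. CA1200, TOP-1 and TOP-2 had 2 replicates at each time, except CA1200 at 60 min with 1, and the DPY-27 strain had 1 L2/L3 and 1 mixed-larvae library at each of its times. The libraries of a replicate number are called a culture here, 8 cultures in all, and the time at which no-auxin worms were taken was not given in the labels. The degron acts on protein, so that the transcript level of a target is no check of its depletion.

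The 4 TOP-2 replicate 1 libraries and the 2 DPY-27 L2/L3 libraries stood apart from the other 21. They held 6.31 to 10.2 M estimated fragments against 12.6 to 23.4 M. Their median gene was at 5.10 to 6.83 TPM (a level per transcript length, scaled to the same total in each library) against 1.27 to 2.53. Cytosolic ribosomal protein genes took 17.3 to 26.0% of TPM in them and 32.3 to 39.5% in the others. Summed TPM of the 7 pharyngeal muscle markers was 1491 to 1685 in the 6 libraries and 506 to 931 in the others, and that of the 8 pharyngeal gland markers was 793 to 1109 against 20.1 to 468. The same sum was 109.9 to 151 against 22.2 to 71.1 for 6 pharynx regulators, 59.1 to 115 against 1.29 to 50.0 for 3 germline markers and 851 to 1245 against 288 to 599 for 5 neuronal markers. Of the muscle sums, mlc-1 alone made up 866 to 965 TPM in the 6 libraries and 500 to 908 TPM in the others. All 6 libraries lay above all 21 others in 6 of the 7 muscle markers, 6 of 8 gland markers, 3 of 6 pharynx regulators, 3 of 3 germline markers and 3 of 5 neuronal markers, on TPM as deposited, where 40.7% of the 14271 genes tested did so. On TPM scaled by median ratios between libraries (scaled TPM), 7.39% of those genes did, and the counts were 6 of 7 muscle, 2 of 8 gland, 2 of 6 regulator, 0 of 3 germline and 1 of 5 neuronal markers. The pharyngeal myosin gene myo-2 was at 51.7 to 163 TPM in the 6 and at 0.539 to 10.5 TPM in the 21, so that this marker of the tissue was low in most libraries of whole larvae. ceh-22 is listed at 0 in 2 of the 21, hlh-6 in 5 and eya-1 in 1, and pax-1 in 17 of the 21 and in 5 of the 6. These 5 markers, and mlc-1 above, were picked out after their values were seen. Hypodermis (868 to 1892 against 229.6 to 2025) and intestine (2516 to 4072 against 2989 to 8971) overlapped. In whole worms, fewer cells of a type and less RNA per cell cannot be told apart.

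The 9 genes lie at few places. The coordinates are those of the files (genome build: not given in the sources used here). Of the genes, 6 are on chromosome V. abu-15 (V:5158607-5159882), abu-6 (V:5160586-5161877), abu-7 (V:5163379-5164743) and abu-8 (V:5192976-5194592) lie within 35986 bp. The gaps are 703 bp between abu-15 and abu-6 and 1501 bp between abu-6 and abu-7, with no other gene between. A stretch of 28232 bp with 7 other genes separates abu-7 from abu-8. abu-1 (V:10380315-10381800) and pqn-2 (V:10382418-10383953) are 617 bp apart. abu-10 is on the X chromosome (X:3798162-3799725), abu-11 on chromosome II (II:192530-194558) and pqn-75 on chromosome IV (IV:4072319-4077629). In the WBcel235 annotation abu-1, abu-6, abu-7, abu-8 and abu-11 are on the minus strand and the other 4 on the plus strand. Its exon models have 2 exons in abu-1, pqn-2, abu-15, abu-6 and abu-7, 3 in abu-8, 4 in abu-11, 7 in abu-10 and 13 in pqn-75.

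The files give these genes by 2 ways of counting, which differ for some of them. The authors' mean normalised count, from a single deposited table (TOP-2 at 120 min of auxin against no auxin), was set against the fragment number that FPKM implies in the libraries of that comparison, as a percentage of the same ratio in the median of 11794 genes. The count reached 6.4% of the implied number for pqn-2, 19.2% for abu-7 and 31.3% for abu-1. It reached 52.4% for abu-6, 62.0% for abu-15 and 78.6% for abu-8. For abu-10, abu-11 and pqn-75 it was 109%, 108% and 88.2%. Close paralogs can share reads, and the part of shared reads in these differences was not tested. The TPM of pqn-2, abu-7, abu-1, abu-6 and abu-15 are uncertain as levels of single genes, and that of abu-8 less so.

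**Figure D1:**
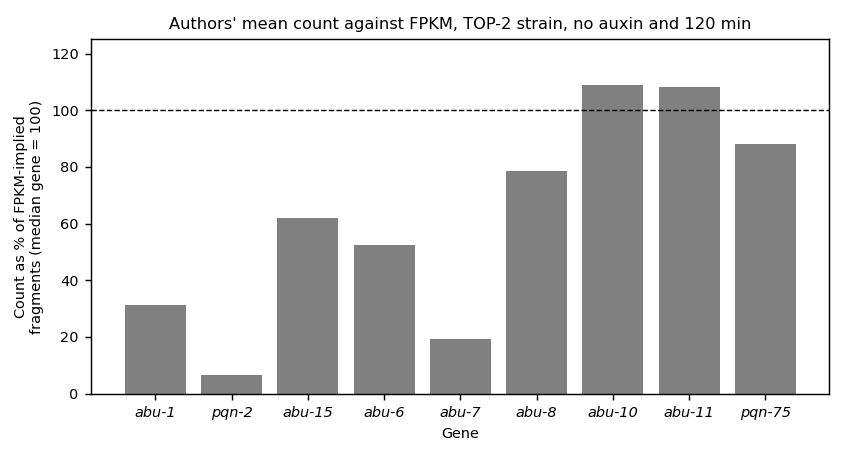
The authors' mean normalised count as a percentage of the fragments implied by FPKM, scaled to the median gene (dashed line), for each of the 9 genes in the TOP-2 strain without auxin and at 120 min. Bars for pqn-2 (6.4%), abu-7 (19.2%) and abu-1 (31.3%) are the lowest, and those for abu-10 (109%) and abu-11 (108%) lie above the line.

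The 9 genes were themselves weakly transcribed in most cultures. Their summed TPM ran from 38.2 to 246 in the 6 libraries that stood apart and from 1.15 to 24.5 in the other 21. All 6 lay above all 21 in 6 of the 9 genes on TPM as deposited and in 0 of 9 on scaled TPM. Of the 14271 genes tested, 40.7% did so on TPM as deposited and 7.39% on scaled TPM. abu-8 had the highest TPM of the 9 in 19 of 27 libraries, and pqn-2 the lowest in 22. The estimated number of fragments behind a gene in a library ran from 0 to 916, with a median of 21.7, and 22 of 243 values rested on fewer than 3 fragments. pqn-2 is listed at 0 in CA1200 at 30 min, replicate 1. All 9 genes passed the filter of at least 1 TPM in at least 2 libraries, pqn-2 in 5 libraries and abu-8 in 18. On the other 21 libraries alone abu-1 and pqn-2 would not have passed it. pqn-2 was at most at 0.875 TPM there, and only TOP-1 replicate 2 at 120 min held abu-1 above 1 TPM (1.15 TPM).

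abu-8 shows the range. In CA1200 replicate 1 it was at 1.01 TPM without auxin and at 0.207, 0.481 and 3.32 TPM at 30, 60 and 120 min. Replicate 2 of that strain had 2.09 TPM without auxin, 0.540 at 30 min and 1.59 at 120 min. Both cultures had their lowest level at 30 min.

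In the TOP-1 strain abu-8 moved in opposite ways in the 2 cultures. Replicate 1 held 3.96, 3.88 and 4.41 TPM at 0, 30 and 60 min and 0.845 TPM at 120 min. Replicate 2 held 0.792, 0.435 and 0.560 TPM at those first times and 7.02 TPM at 120 min. The first 3 times were thus high in replicate 1 and low in replicate 2, and the last time the reverse, on 33.2 and 344 estimated fragments at 120 min.

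In the TOP-2 strain abu-8 was at 62.4, 11.7, 15.4 and 41.1 TPM at 0, 30, 60 and 120 min in replicate 1. Replicate 2 had 1.25, 0.747, 1.28 and 1.65 TPM. The DPY-27 strain had 63.9 and 69.5 TPM at 0 and 120 min in L2/L3 larvae and 1.52 and 0.647 TPM in mixed larvae. The cultures of each of these strains did not overlap at any time.

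**Figure D2:**
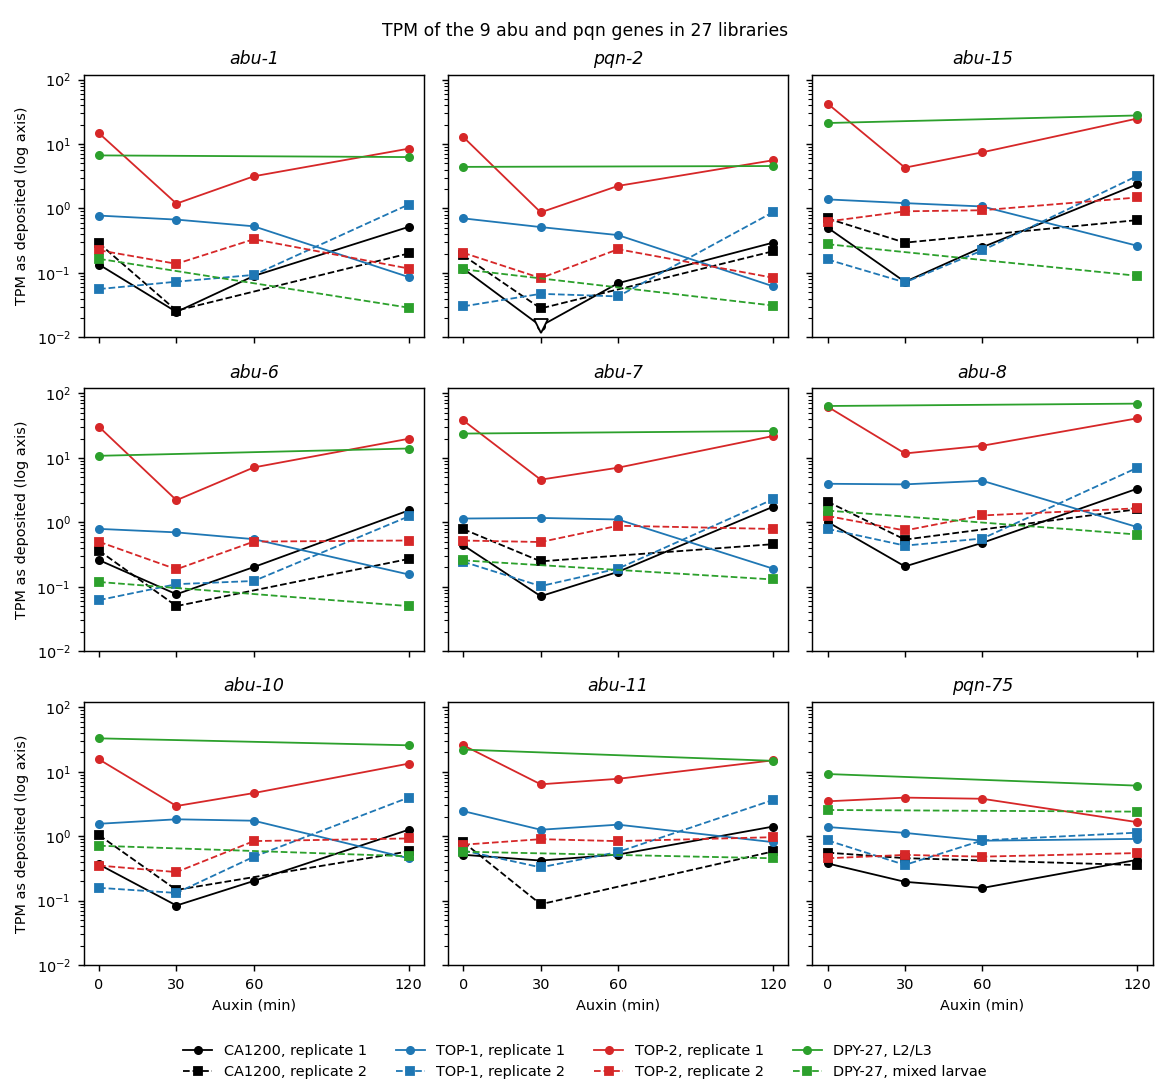
TPM as deposited (log axis) of each of the 9 genes against minutes of auxin, with a line for each of the 8 cultures. The open triangle marks pqn-2 listed at 0. In 8 panels the lines of TOP-1 replicates 1 and 2 cross between 60 and 120 min, and TOP-2 replicate 1 and DPY-27 L2/L3 run above the rest at most times. In pqn-75 the TOP-1 lines meet at 60 min.

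Of the neighbours of abu-8, abu-6 and abu-7 had lower TPM than abu-8 in 27 of 27 libraries and abu-15 in 26. The exception was TOP-2 replicate 2 at 30 min, where abu-15 was at 0.905 TPM and abu-8 at 0.747 TPM. abu-15 was at 1.38, 1.21, 1.07 and 0.264 TPM over 0, 30, 60 and 120 min in TOP-1 replicate 1 and at 0.162, 0.0713, 0.224 and 3.20 TPM in replicate 2. abu-6 was at 30.3, 2.2, 7.11 and 19.8 TPM in TOP-2 replicate 1 and at 0.499, 0.187, 0.502 and 0.522 TPM in replicate 2. abu-7 was at 23.9 and 26.1 TPM in L2/L3 larvae of the DPY-27 strain and at 0.257 and 0.13 TPM in mixed larvae. The 2 cultures did not overlap in these TOP-2 and DPY-27 values, and in TOP-1 their order turned at 120 min.

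abu-1 and pqn-2, a pair of neighbours, had the lowest median TPM of the 9 in the 21 libraries that did not stand apart. In the 6 that did, pqn-75 had the lowest median (3.88 TPM), below pqn-2 (4.49 TPM) and abu-1 (6.48 TPM). abu-1 is a gene whose transcript was first described as rising when the unfolded protein response is blocked. In TOP-2 replicate 1 abu-1 was at 14.7, 1.19, 3.16 and 8.48 TPM over the 4 times, and pqn-2 at 12.9, 0.872, 2.24 and 5.60 TPM. Outside the 6 libraries that stood apart, abu-1 had a median of 0.139 TPM (range 0.0248 to 1.15, 21 libraries) and pqn-2 a median of 0.114 TPM (0 to 0.875).

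abu-10 on X and abu-11 on II, which lie away from the cluster on V, showed the crossing in TOP-1 too. abu-10 was at 1.56, 1.83, 1.74 and 0.453 TPM in replicate 1 and at 0.158, 0.131, 0.479 and 3.98 TPM in replicate 2. abu-11, whose overexpression is known to lengthen worm lifespan, was at 2.45, 1.26, 1.51 and 0.808 TPM in replicate 1 and at 0.599, 0.328, 0.568 and 3.64 TPM in replicate 2. At 120 min both genes were lower in replicate 1 than in replicate 2, the reverse of the earlier times.

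pqn-75 behaved differently in its values. It was at 0.377, 0.196, 0.157 and 0.429 TPM in CA1200 replicate 1, and at 0.555, 0.456 and 0.356 TPM at 0, 30 and 120 min in replicate 2. It was at 1.39, 1.12, 0.850 and 0.907 TPM in TOP-1 replicate 1 and at 0.860, 0.358, 0.860 and 1.13 TPM in replicate 2. TOP-2 replicate 1 held 3.47, 3.96, 3.80 and 1.65 TPM and replicate 2 held 0.454, 0.512, 0.481 and 0.546 TPM. In the DPY-27 strain it was at 9.21 and 6.08 TPM in L2/L3 and at 2.55 and 2.40 TPM in mixed larvae, so that it was the highest of the 9 genes in mixed larvae at both times. Between its lowest and highest library, scaled TPM differed 26.4-fold for pqn-75. The same ratio was 117-fold for abu-8 and 292-fold for abu-6.

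Across libraries 8 of the 9 genes moved together. Over 27 libraries the 28 pairs without pqn-75 had a Pearson r of log2(scaled TPM + 1) between 0.893 and 0.994. Over the 21 libraries that did not stand apart r was between 0.801 and 0.985. The 8 pairs with pqn-75 had r between 0.452 and 0.658 over 27 libraries and between -0.011 and 0.362 over 21. These values are a description: libraries of a culture are not independent, and paralogs can share reads. abu-10 and abu-11, with counts close to those implied by FPKM, are among the 28 pairs.

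Genes between and beside the members did not all share this course. Of 20 other genes within 5000 bp of a member, 10 were tested, and their r with the mean standardised level of the 9 genes over 27 libraries ran from -0.578 to 0.822, with a median of 0.32 (median over all tested genes 0.04). C03A7.13, next to abu-8, had the highest r (0.822) and srx-38, next to abu-15, the lowest. W03D2.9 was the only gene that overlapped a member, pqn-75, and had r of -0.158.

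The genes most like the 9 over 27 libraries, by that r, were R03C1.1 (0.971), idpc-6 (0.963), lact-7 (0.958), nas-1 (0.957), idpc-5 (0.955), pqn-54 (0.954), W08E12.4 (0.95) and idpp-11 (0.946). idpc-6, idpc-5 and idpp-11 are named for intrinsically disordered proteins, nas-1 encodes an astacin family metalloprotease and pqn-54 a prion-like protein. idpc-5 was at 5.04 to 45.6 TPM in the 6 libraries that stood apart and at 0 to 6.05 TPM in the other 21. In all, 44 of 14262 other genes had r above 0.9. Over the 21 libraries r of the 8 genes fell to between 0.661 and 0.881.

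No auxin time in any strain gave a call for any of the 9 genes. The test was limma on log2(scaled TPM + 1) over 14271 genes, with Benjamini-Hochberg adjusted p under 0.05. Of all genes it called 0% at 30 and 60 min and 0.00701% at 120 min in CA1200, 0.00701%, 0.603% and 1.94% at 30, 60 and 120 min in TOP-1, 0% at each time in TOP-2 and 0.0491% at 120 min in DPY-27. In this fit, without a replicate term, none of the 9 genes had an unadjusted p under 0.05 in these 10 comparisons either. Between 187 and 1976 genes had one. At 120 min the median log2 difference of the 9 genes was 0.21 in CA1200, 0.31 in TOP-1, -0.24 in TOP-2 and -0.21 in DPY-27. In TOP-1 the largest was that of abu-10, 0.70 ± 0.81 (SE, 2 libraries against 2, limma adjusted p = 0.844). For abu-8 in TOP-1 it was 0.40 ± 1.18 (SE, limma adjusted p = 0.969). Between the cultures of a strain the changes differed in size or in sign. With a replicate term for each strain in the fit, limma called 23% of all genes at 120 min in TOP-1, and again none of the 9 in any of the 10 comparisons. Unadjusted p were not counted in that fit. At 30 min in TOP-2 it gave -1.53 ± 0.53 for abu-6 (SE, limma adjusted p = 0.345). It gave -1.17 ± 0.43 for pqn-2, -1.13 ± 0.49 for abu-1 and 0.26 ± 0.23 for pqn-75. Without the libraries that stood apart, abu-6, pqn-2 and abu-1 differed there by -0.40, -0.19 and -0.11.

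The changes within single cultures were large, and each compares 2 libraries with no replicate check. In TOP-1 replicate 1 all 9 genes were lower at 120 min than without auxin, at a median 0.190 of the level without auxin. In TOP-1 replicate 2 all 9 were higher, at a median of 21.2 times that level. Over all genes the median ratio was 0.998 in replicate 1 and 1.06 in replicate 2. Of these genes 49.8% and 54.0% were higher at 120 min than without auxin. In replicate 1, 15.6% were below 0.5, and in replicate 2, 16.8% were above 2. Pharyngeal lists did not move alike. The gland markers went the same ways as the 9 genes: their summed TPM in replicate 1 was 262 without auxin and 32.1 at 120 min, and replicate 2 had 311 and 468. The sum of the muscle markers went from 876 to 862 and from 573 to 575, but mlc-1 made up most of it. In the 21 libraries that did not stand apart mlc-1 was at 500 to 908 TPM, and each other muscle marker at most at 16.4 TPM. The sum thus says little about the rest of that list. The pharynx regulators went the other ways, from 33.8 to 39.7 and from 56.4 to 43.2. Other genes taken by symbol as pharyngeal cuticle genes had a higher sum at 120 min in both cultures (1239 to 2042 and 1015 to 2370). Within the muscle list tnc-2, picked out after its values were seen, was at 6.30 and 2.54 TPM in replicate 1 and at 4.95 and 7.67 TPM in replicate 2. The part of these markers in the result was not tested. For abu-10 and abu-11 the estimated fragments in replicate 2 went from 5.2 to 163 and from 20.2 to 152.

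CA1200, which has no tagged target, showed swings as well. At 30 min the median ratio to no auxin was 0.288 in replicate 1 and 0.121 in replicate 2. In replicate 1, 7 of the 8 genes with a ratio were lower, and in replicate 2 all 9 were. At 120 min all 9 genes were higher in replicate 1, with a median ratio of 3.5, and all 9 lower in replicate 2, with a median of 0.587. Over all genes, 50.0% and 45.7% were higher at 30 min than without auxin in replicates 1 and 2. At 120 min 50.1% and 47.9% were. Below 0.5 of the level without auxin were 8.05% and 6.7% at 30 min. At 120 min 9.78% were above 2 times that level in replicate 1, and 8.31% were below 0.5 in replicate 2.

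In TOP-2 replicate 1 the median ratio to no auxin was 0.155 at 30 min, 0.263 at 60 min and 0.654 at 120 min. In replicate 2 it was 0.907, 1.16 and 1.10. Of all genes, 6.9%, 4.85% and 2.52% were below 0.5 in replicate 1. pqn-75 was the gene of the 9 that did not drop at 30 and 60 min in replicate 1. In the DPY-27 strain the ratio at 120 min was 0.905 in L2/L3 and 0.428 in mixed larvae, where the median of all genes was at 0.987 and 0.990 and 9.14% of genes were below 0.5 in mixed larvae.

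**Figure D3:**
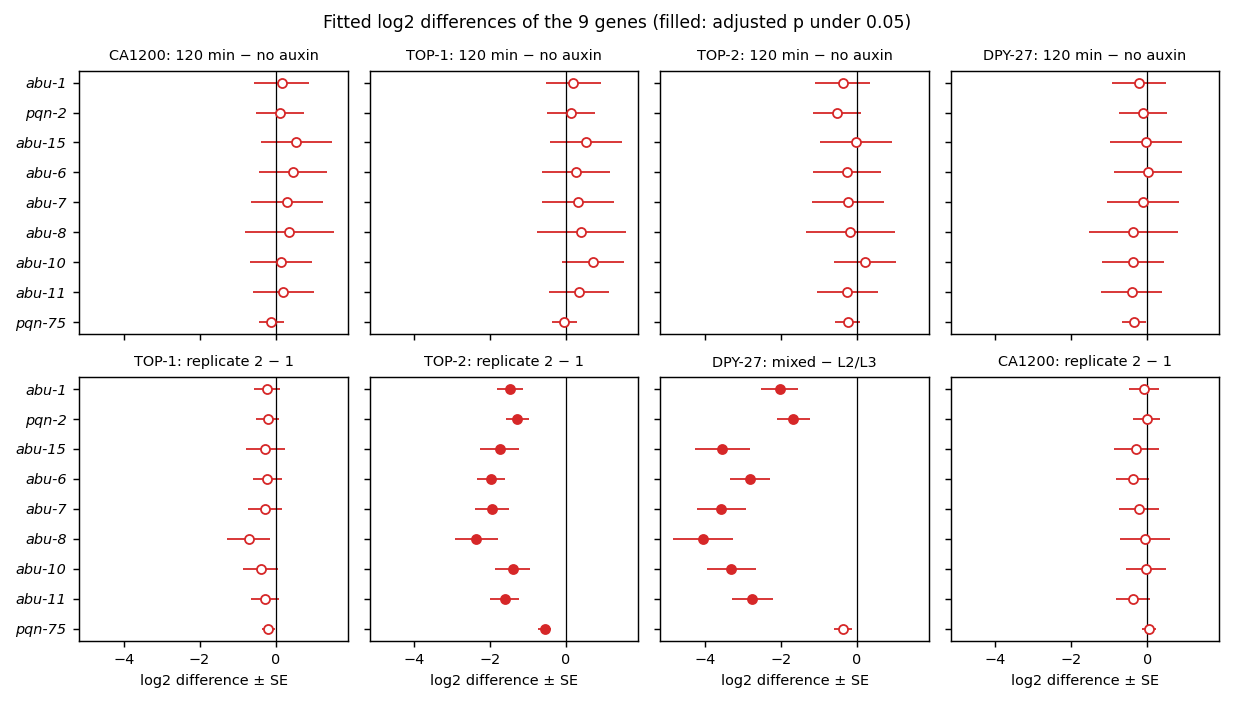
Log2 differences ± SE from limma for the 9 genes: 120 min of auxin minus no auxin in the 4 strains (top row) and the difference between the cultures of a strain (bottom row). Filled points have an adjusted p under 0.05. All points in the top row are open, and filled points appear only in TOP-2 (9 genes) and DPY-27 (8 genes) of the bottom row.

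Between the degron strains and CA1200 at the same auxin time, limma called pqn-75 in the DPY-27 strain without auxin and none of the 9 genes elsewhere, in the fit that takes the cultures of a strain as replicates. A fit with a replicate term changed these calls. Only with libraries that stood apart did abu-1 and pqn-2 pass the filter. The fit with a replicate term sets TOP-2 replicate 1 and the L2/L3 larvae of DPY-27, which stood apart, against CA1200 replicate 1. It called all 9 genes higher in DPY-27 at 0 and at 120 min, where it called 23.9% and 23.2% of all genes higher. In TOP-2 it called 8, 4, 4 and 5 of the 9 higher at 0, 30, 60 and 120 min, where 24.6%, 23.6%, 18.6% and 22.3% of all genes were called higher. Without the replicate term, pqn-75 was higher by 1.91 ± 0.36 (log2, SE, limma adjusted p = 0.0449), in a comparison that called 0.476% of genes. It rests on the level of L2/L3 larvae, since mixed larvae have a term of their own. The call was lost when any of the 4 libraries behind it was left out, with values between 1.48 and 2.05. In the authors' deposited table the difference was 2.97 (DESeq2 adjusted p = 8.71e-04). That value comes from counts, not from log2(scaled TPM + 1), and the table's name does not give the larval stage of its libraries. The limma and DESeq2 values are thus not of the same measure, and perhaps not of the same libraries. At 120 min pqn-75 was 1.68 ± 0.36 higher (limma adjusted p = 0.0775), with 0.238% of genes called. All 9 genes had an unadjusted p under 0.05 without auxin and 6 of 9 at 120 min, of 2974 and 2266 genes. The L2/L3 libraries are among those that stood apart, and for them the strain and that difference cannot be told apart here. In mixed larvae, which did not stand apart, pqn-75 was at 2.55 and 2.40 TPM, against 0.157 to 0.555 TPM in CA1200. abu-8 in mixed larvae (1.52 and 0.647 TPM) lay within its range in CA1200 (0.207 to 3.32 TPM). The part of the strain in the level of pqn-75 was not tested.

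For TOP-1 against CA1200, limma called 0% of genes at 0, 30 and 60 min and 0.245% at 120 min, and the medians of the 9 genes were 0.18, 0.42, 0.30 and 0.22. For TOP-2 against CA1200 it called 0% at each of the 4 times, without the replicate term. Medians there were 1.53, 0.85, 1.11 and 1.08, all 9 genes being higher in TOP-2 at each time. Without the libraries that stood apart the medians were 0.12, 0.45, 0.51 and -0.09 at 0, 30, 60 and 120 min, with 8, 9, 9 and 4 of the 9 genes higher in TOP-2 and none called. The 120 min change differed from that of CA1200 in none of the 9 genes in any degron strain (limma, 0% of genes called in each). Unadjusted p were under 0.05 for 463 genes in TOP-1, 108 in TOP-2 and 133 in DPY-27, none of them among the 9.

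In the authors' deposited tables, made with DESeq2, calls were few. The names of these tables give strain and auxin time but not larval stage. The DPY-27 strain without auxin was above CA1200 in 4 of the 8 genes listed, where 6.7% of all genes with an adjusted p were called. Beside pqn-75 these were abu-8 (log2 difference 3.46, DESeq2 adjusted p = 0.00611 in the authors' deposited table), abu-10 (3.64, adjusted p = 0.0111) and abu-11 (3.09, adjusted p = 0.0377). At 120 min pqn-75 was called in the authors' deposited table (2.79, adjusted p = 0.00522; 4% of genes called). For TOP-2 without auxin against CA1200 the authors' deposited table called abu-6 (5.82, adjusted p = 0.036; 0.783% of genes called). The other 13 of the authors' deposited tables called none of the 9, though several gave no adjusted p for some of them. Of all genes these tables called 0.579%, 2.52% and 3.64% at 30, 60 and 120 min against no auxin in TOP-1, and 1.06%, 0.326%, 0.119% and 1.25% in TOP-1 against CA1200 from no auxin to 120 min. In TOP-2 they called 0.00611%, 0% and 0% over time, and 0.777%, 0% and 0.587% against CA1200 at 30, 60 and 120 min.

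The cultures of a strain differed from each other in TOP-2 and in DPY-27. Replicate numbers were compared over the auxin times that both cultures had, in a limma fit with a term for the culture in each strain. This sets 2 cultures against each other, not 2 conditions, and p-values measure the spread of libraries within them. In TOP-2 all 9 genes were called lower in replicate 2 than in replicate 1. Of all genes 64.2% were called there and 33.7% were called lower. abu-1 and pqn-2 passed the filter only with the libraries that stood apart, TOP-2 replicate 1 among them. The calls of these 2 genes are thus no separate support for the difference. abu-8 was lower by 2.37 ± 0.56 on the log2 scale (log2 difference -2.37, SE, limma adjusted p = 0.00259). abu-6 differed by -1.97 ± 0.37 (limma adjusted p = 0.000501) and pqn-75 by -0.57 ± 0.16 (limma adjusted p = 0.0077). The median of the 9 was -1.62 and that of all genes -0.04. On TPM as deposited, where 80.7% of all genes were called lower and 5.35% higher, all 9 were again called lower. abu-10 was not called without either library of 0 or of 120 min (-1.26 to -1.08, limma adjusted p = 0.0652 to 0.0912), nor abu-15 without either library of 0 min (-1.21, limma adjusted p = 0.0653 and 0.0654).

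Of the 9 genes, 8 were called lower in mixed than in L2/L3 larvae of the DPY-27 strain. Of all genes 40.2% were called there and 21.4% were called lower. Among the 8, abu-1 and pqn-2 passed the filter only with the libraries that stood apart, the L2/L3 libraries among them. abu-8 differed by -4.05 ± 0.80 (SE, limma adjusted p = 0.0016) and abu-7 by -3.56 ± 0.65 (limma adjusted p = 0.000935). pqn-75 differed by -0.36 ± 0.23 and was not called (limma adjusted p = 0.229). abu-1 and pqn-2 were not called when any of the 4 libraries was left out (-2.02 for abu-1, -1.68 to -1.65 for pqn-2, limma adjusted p = 0.0585 to 0.086). On TPM as deposited 69.2% of all genes were called lower and 4.1% higher, and all 9 were called lower. The stage label, the culture and the properties of the libraries that stood apart change together here and cannot be told apart.

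Other pharyngeal genes moved with these differences. In TOP-2, replicate 2 was lower in 6 of 7 pharyngeal muscle markers (median -3.60), 8 of 8 gland markers (median -2.71), 4 of 5 tested pharynx regulators and 3 of 3 germline markers, and higher in mlc-1 of the muscle list. These calls stand beside 33.7% of all genes called lower there. Unscaled, 7 of 7 muscle markers were lower, mlc-1 included (-0.29), and 5 of 5 regulators. On that scale the median of all genes was -1.255, and 80.7% of them were called lower. Of other tissues, 5 of 5 neuronal, 6 of 6 hypodermis and 3 of 5 intestine markers were lower, and 2 intestine markers were higher. tnc-2, a troponin C gene of pharyngeal muscle, was at 133 to 172 TPM in TOP-2 replicate 1 and at 0.865 to 1.88 TPM in replicate 2. In DPY-27, mixed larvae were lower in 6 of 7 muscle, 7 of 8 gland and 3 of 3 germline markers, with tnc-2 at 128 and 134 TPM in L2/L3 and at 5.30 and 3.59 TPM in mixed larvae. These counts were 7 of 7, 8 of 8 and 3 of 3 on TPM as deposited. Of all genes 21.4% were called lower on scaled TPM and 69.2% on TPM as deposited. The part of these markers in the result was not tested.

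In TOP-1 none of the 9 genes was called between cultures, where 38.9% of all genes were called, nor in CA1200, where 18.8% were. The medians were -0.27 and -0.09, and with a pseudocount of 0.1 in place of 1 they were -0.88 and -0.23, again with none called. The TOP-1 test averages 4 times of which the last has the opposite order. The ratio of replicate 1 to replicate 2 had a median of 8.64 without auxin, 8.25 at 30 min, 4.74 at 60 min and 0.104 at 120 min. When either 120 min library was left out, the fit rests on the first 3 times, and 3 of 9 genes were called lower in replicate 2: abu-8 by -1.71 ± 0.34 (SE, limma adjusted p = 0.00227), abu-10 by -1.16 ± 0.31 (limma adjusted p = 0.0134) and abu-11 by -0.87 ± 0.29 (limma adjusted p = 0.0401), where 32.3% of genes were called and 15% were called lower. The shared order of those 3 times had already been seen in these ratios, so these calls are no separate support for it. In CA1200 the ratio of replicate 1 to replicate 2 was 0.637 without auxin, 0.850 at 30 min and 3.06 at 120 min. In TOP-2 it was 18.3, 3.15, 3.06 and 10.0 over the 4 times, and in DPY-27 the ratio of L2/L3 to mixed larvae was 20.4 and 61.7.

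**Figure D4:**
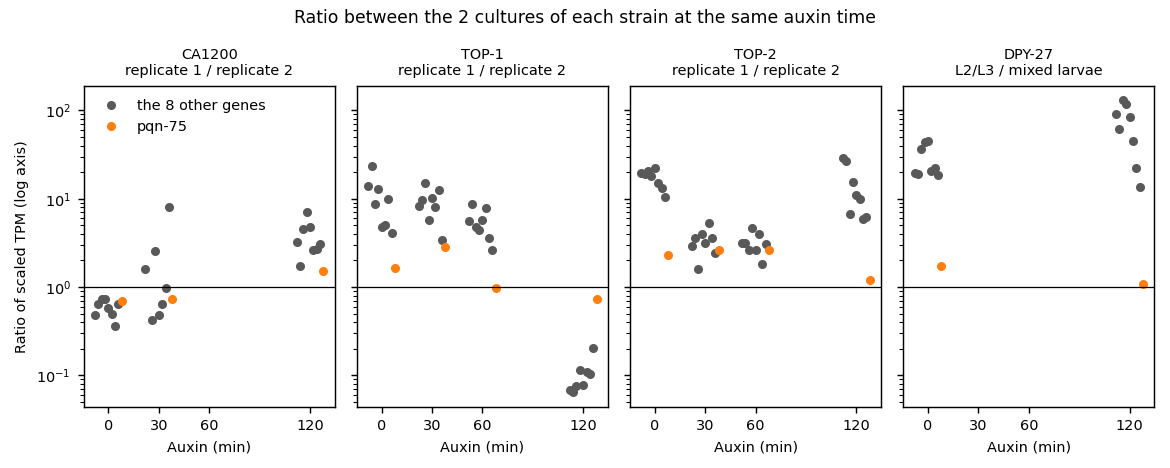
Ratio of scaled TPM between the cultures of a strain at the same auxin time (log axis), a point per gene, pqn-75 in orange. Points of a time are spread sideways for legibility, and pqn-2 at 30 min in CA1200 has no ratio since replicate 1 is listed at 0. In TOP-1 the median ratio goes from 8.64 without auxin to 0.104 at 120 min, while in TOP-2 and DPY-27 all points lie above 1.

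Larval phase was read from the genes of the body cuticle and of the molt cycle. The furrow collagens, dpy-7 among them, build the circumferential furrows of the body cuticle and are made in a short window of each larval stage. Their summed TPM (6 genes) in TOP-1 replicate 1 was 164, 96.3, 78.6 and 51.2 at 0, 30, 60 and 120 min. In replicate 2 it was 3094, 2170, 1583 and 981. It was thus lower at 120 min than without auxin in both TOP-1 cultures, whereas the 9 genes were lower in replicate 1 and higher in replicate 2.

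Between the TOP-1 cultures, all 6 furrow collagens were higher in replicate 2 (median log2 difference 4.31). Of 23 molting cycle genes 21 were (median 2.34). None of the 9 abu and pqn genes was called, where 38.9% of all genes were called in either direction. dpy-7 differed by 4.42 ± 0.26 (SE, limma adjusted p = 1.39e-07). mlt-8, a molting gene, differed by 3.10 ± 0.21 (limma adjusted p = 3.51e-07). lin-42, the worm relative of the period clock gene, differed by 3.31 ± 0.24 (limma adjusted p = 5.89e-07). That fit averages over the turn of the 9 genes at 120 min, and the next one keeps only the times already seen to share an order. In the fit without either 120 min library, abu-8, abu-10 and abu-11 were called lower in replicate 2, as were 15% of all genes.

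In TOP-2, 5 of 6 furrow collagens and 16 of 23 molting genes were lower in replicate 2, as the 9 genes were. Of all genes 33.7% were called lower there. On TPM as deposited 6 of 6 and 23 of 23 were lower, beside 80.7% of all genes. Furrow collagens summed to 1997 to 2232 TPM in TOP-2 replicate 1 and to 277 to 543 TPM in replicate 2. In DPY-27, 0 of 6 furrow collagens were called and 1 molting gene was higher and 5 lower in mixed larvae, by limma, while 8 of the 9 genes were lower. That contrast depends on the scaling: on TPM as deposited 5 of 6 furrow collagens, 22 of 23 molting genes and all 9 genes were lower. Of all genes 69.2% were called lower on that scale, and 21.4% on scaled TPM. In CA1200 18.8% of all genes were called in either direction. Replicate 2 was higher in 1 of 6 furrow collagens and 9 of 23 molting genes and lower in 1 molting gene. On TPM as deposited, where 21.8% of all genes were called higher and 4.25% lower, it was higher in 5 of 6 and 15 of 23. None of the furrow or molting genes was called at 120 min of auxin in any strain, and the furrow medians were -0.81 in CA1200 and -1.55 in TOP-1.

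**Figure D5:**
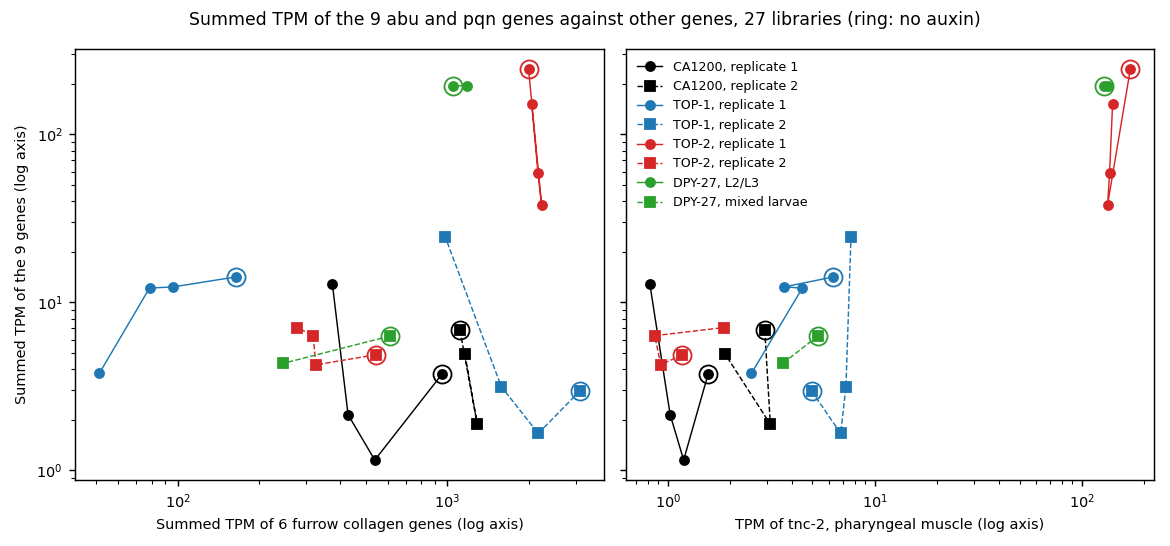
Summed TPM of the 9 genes (vertical, log axis) against summed TPM of the 6 furrow collagens (left) and TPM of tnc-2 (right), log axes, in 27 libraries. Lines join the libraries of a culture in order of auxin time, starting at the ring. TOP-1 replicate 1 runs from 164 to 51.2 TPM of furrow collagens as the 9 genes go from 14.2 to 3.77 TPM, and replicate 2 from 3094 to 981 as they go from 2.96 to 24.5.

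The relation of the 9 genes to phase was tested with 1 library without auxin for each of the 6 cultures that did not stand apart. These cultures were taken as independent, which the labels do not state. The test was planned over 8 cultures, and 2 were set aside after they were seen to stand apart. The 2 set aside had the highest sums of the 9 genes without auxin, 195 TPM in DPY-27 L2/L3 and 246 TPM in TOP-2 replicate 1, with furrow collagens at 1049 and 1997 TPM. The other 6 ran from 2.96 to 14.2 TPM, with furrow collagens at 164 to 3094 TPM, and the r values cover those 6 alone. The mean level of the 9 genes had a Pearson r of -0.92 with the mean furrow collagen level (exact permutation p = 0.0333, adjusted over 3 relations 0.0875) and a Spearman rho of -0.6 (exact permutation p = 0.242). Without the 2 cultures farthest from the median, r was -0.15, so that the relation rests on those cultures. With lin-42 r was -0.77 (exact permutation p = 0.0583, adjusted 0.0875) and -0.02 without the 2 farthest. With mlt-10, a gene that peaks in the molt, r was -0.43 (exact permutation p = 0.333, adjusted 0.333) and 0.15 without the 2 farthest. For lin-42 and mlt-10 Spearman's rho was again -0.6 (exact permutation p = 0.242). No relation passed after adjustment.

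Of the other abu and pqn genes 62 were in the files and 49 were tested, and their split depended on the scaling. On scaled TPM, between the TOP-2 cultures 12 were higher and 23 lower in replicate 2, and between the DPY-27 cultures 5 were higher and 24 lower in mixed larvae. On TPM as deposited 0 were higher and 46 lower in TOP-2, and 0 higher and 41 lower in DPY-27. Of all genes 33.7% in TOP-2 and 21.4% in DPY-27 were called lower on scaled TPM, and 80.7% and 69.2% on TPM as deposited. Between the TOP-1 cultures 10 of the 49 were higher and 10 lower (10 and 11 on TPM as deposited). Between the CA1200 cultures 6 were higher and 2 lower (15 and 1 on TPM as deposited). On scaled TPM 38.9% of all genes were called in TOP-1 and 18.8% in CA1200, in either direction. After 120 min of auxin 2 of the 49 were called higher in TOP-1, where 1.94% of all genes were called, and none in the other strains. The 3 with the highest levels were abu-13, pqn-59 and pqn-70. abu-13 was higher by 3.28 ± 0.29 in TOP-1 replicate 2 (limma adjusted p = 2.73e-06) and differed by -1.43 ± 0.29 in TOP-2 (limma adjusted p = 0.000861). pqn-59 was higher by 1.36 ± 0.12 in TOP-2 replicate 2 (limma adjusted p = 9.59e-07), opposite in direction to the 9 genes, but on TPM as deposited it differed by -0.18 and was not called (limma adjusted p = 0.186). pqn-70 differed by -1.24 ± 0.12 (limma adjusted p = 2.64e-06).

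A list of 75 other genes was taken as pharyngeal cuticle genes by symbol alone, and 64 were tested. It held chs-2, nas-6, nas-7 and all fipr-, nspb-, idpa-, idpb-, idpc- and idpp- genes. The place of each gene in the pharyngeal cuticle was not tested. Between the TOP-2 cultures 3 were higher and 36 lower in replicate 2, and between the DPY-27 cultures 3 were higher and 33 lower in mixed larvae. Without scaling these counts were 1 and 49, and 2 and 46. Of all genes 33.7% in TOP-2 and 21.4% in DPY-27 were called lower on scaled TPM, and 80.7% and 69.2% without scaling. In TOP-1, 7 of the 64 were higher and 20 lower in replicate 2, and in CA1200, 2 were higher and 2 lower. Of all genes 38.9% and 18.8% were called in these 2 strains, in either direction. The medians of the 64 genes were -0.96 in TOP-2, -1.13 in DPY-27, -0.09 in TOP-1 and -0.06 in CA1200. fipr-2 was lower by 3.91 in TOP-2 replicate 2 (log2 difference -3.91 ± 0.38, limma adjusted p = 2e-06) and by 1.64 in TOP-1 replicate 2 (-1.64 ± 0.38, limma adjusted p = 0.00401). fipr-21 differed by 0.17 ± 0.14 in TOP-2 and by -0.05 ± 0.14 in TOP-1, not called in either (limma adjusted p = 0.308 and 0.812). Its difference in TOP-2 was -1.38 on TPM as deposited (limma adjusted p = 1.06e-07). idpa-1 differed by -0.85 ± 0.19 in TOP-2 (limma adjusted p = 0.00146) and by 1.00 ± 0.21 in CA1200 (limma adjusted p = 0.00927).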

How the data were processed

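RNA-seq of 27 libraries was used. The deposited library files hold FPKM and TPM per gene, per the file headers. The authors' deposited comparison tables hold a mean normalised count (baseMean, a signal averaged over samples), a log2 fold change with its standard error, a test score (stat) and p-values. Tools listed, without roles, in the submitters' processing notes were DESeq2 1.30.0, Cufflinks 2.2.1, HTSeq 0.13.5, HISAT2 2.2.1 and CASAVA 1.8 (genome build: not given in the sources used here). Library depth was estimated from the smallest steps of FPKM times gene length.

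TPM was scaled by median ratios over 12832 genes. limma 3.58.1 (R 4.3.3) with a variance trend was fitted to log2(scaled TPM + 1) of 14271 genes with at least 1 TPM in at least 2 libraries, with a mean per strain and time and a term for mixed larvae (12 residual degrees of freedom). The pseudocount of 1 makes fold changes of low genes smaller. Cultures were compared in a fit with a replicate term per strain (9 residual degrees of freedom). P-values are two-sided and adjusted over all genes tested by the Benjamini-Hochberg method. The fit was tested on simulated data. Named were all 9 members, up to 3 of the highest genes of other lists and the 8 genes most alike. Members and lists were chosen with earlier results of these data known. Alternatives were the pseudocount, scaling, filter, FPKM, variance trend, replicate term and leaving out libraries.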

Additional observations from a re-analysis of the deposited data

Results flagged for a closer look

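On scaled TPM pqn-75 moved in opposite directions between strains in both cultures of each. At 30 min of auxin against none, its log2 change was -0.14 and -0.20 in the CA1200 cultures, -0.19 and -0.44 in the TOP-1 cultures, and 0.36 and 0.16 in the TOP-2 cultures. At 60 min it was -0.41 and -0.01 in the TOP-1 cultures and 0.19 and 0.05 in the TOP-2 cultures. All samples of a strain moved the same way on scaled TPM, which is what brought the gene to attention among the 9. On TPM as deposited TOP-1 replicate 2 did not fall at 60 min, with 0.8597 TPM without auxin and 0.8604 TPM then. The differences between strains, added after seeing the data and fitted with limma, were 0.43 ± 0.46 (SE) for TOP-2 minus CA1200 at 30 min, 0.57 ± 0.46 for TOP-2 minus TOP-1 at 30 min and 0.33 ± 0.46 at 60 min. Unadjusted p were 0.361, 0.231 and 0.489 and limma adjusted p were 1, so that none passed the test.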

How the results depend on the processing

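Of the recomputed medians of the 9 genes, 271 moved by less than 1 SD between replicates and 35 by more. That SD was 0.888 on the log2 scale, or, between cultures, the SD of their difference over times, so that a median can move by over 1.5 times within it. Of the recomputed counts of calls 290 stayed within 1.5 times and 16 did not. Of 208 recomputed values of single genes, 21 lost the call and 1 gained it. Of the lost calls 3 came from the pseudocount, scaling or FPKM and 18 from leaving out a library. No called value changed sign, and without the variance trend none moved. A pseudocount of 0.1 in place of 1 made the median -1.35 for CA1200 at 30 min against no auxin, 1.33 for TOP-1 and 2.10 for TOP-2 against CA1200 at 30 min, 2.27 for TOP-2 against CA1200 at 60 min, 4.01 for DPY-27 against CA1200 without auxin, -2.60 between the TOP-2 cultures and -4.30 between the DPY-27 cultures. Of 27 medians it moved 17 by over 1.5 times, 16 of them to a larger size, and 1 changed sign (the TOP-1 change at 120 min beyond that of CA1200, from 0.03 to -0.02, not called). Under TPM as deposited, which shifts the median of all genes by -1.25 between the TOP-2 cultures and -0.98 between the DPY-27 cultures, these last values were -2.80 and -3.66, and DPY-27 against CA1200 at 120 min was 3.12. pqn-75 between the DPY-27 cultures was then called as well (-1.29). With FPKM the DPY-27 cultures differed by -3.06.

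The single call against CA1200, pqn-75 in the DPY-27 strain without auxin, became 0 calls with the pseudocount of 0.1, with TPM as deposited and with FPKM, and 0 in each of the 4 fits that left out a library. Without the filter on low values 1 gene was called at 120 min. Without the libraries that stood apart the TOP-2 medians were -0.05 at 30 min and 0.12 at 60 min against no auxin, and 0.12, 0.45, 0.51 and -0.09 at 0, 30, 60 and 120 min against CA1200, where they were 1.53, 0.85, 1.11 and 1.08 with them.

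Leaving out each replicate in turn moved the TOP-2 medians against no auxin between -2.37 and 0.54 at 30 min, -1.98 and 0.70 at 60 min and -1.69 and 1.28 at 120 min. Against CA1200 they moved between 0.12 and 2.81 without auxin and between -0.09 and 2.05 at 120 min, and the TOP-2 change beyond that of CA1200 between -1.82 and 0.83. The median between the DPY-27 cultures was between -3.03 and -2.93, and the count of calls between the TOP-1 cultures between 0 and 3. With scaled TPM or FPKM throughout, list counts under the other alternatives and with a library left out were 8 to 12 higher and 22 to 24 lower of the other abu and pqn genes in TOP-2, 0 to 5 and 16 to 24 in DPY-27, 6 to 13 and 4 to 12 in TOP-1 and 0 to 10 and 1 to 3 in CA1200. Lower counts of other pharyngeal cuticle genes were 28 to 37 in TOP-2, 17 to 33 in DPY-27 and 12 to 21 in TOP-1. Molting genes were lower in 12 to 17 in TOP-2 and 1 to 6 in DPY-27 and higher in 2 to 11 in CA1200, where furrow collagens were higher in 0 to 3.

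For the replicate block, the correlation of same-numbered libraries' deviations was 0.378 to 0.698 in CA1200, 0.628 to 0.904 in TOP-1 and 0.785 to 0.887 in TOP-2. With only 2 numbers per strain, and labels that do not tie a number to a batch, this is a hint from the data. Library IDs in the sample titles begin with AM in TOP-2 replicate 1 and in all DPY-27 libraries, and with AKM in the others. What these IDs stand for is not given. The block gave 8, 4, 4 and 5 calls for TOP-2 against CA1200 at 0, 30, 60 and 120 min and 9 at both times for DPY-27, beside the shares of all genes given in the report. It gave no call among the 9 in the other comparisons with CA1200 or with auxin.

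Depth limits pqn-2, abu-1 and abu-6 most, where 16, 15 and 12 of 27 values rest on fewer than 10 estimated fragments.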
